A study of Rattus norvegicus with 2 samples.

Results

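Integrins are the receptors by which cells hold on to the extracellular matrix. Each is a pair of 1 α chain and 1 β chain, the α chain largely sets which matrix protein is bound, and the β1 chain encoded by Itgb1 pairs with most matrix-binding α chains. In skeletal muscle, α7β1 is the main laminin receptor of fibres and of satellite cells, the muscle stem cells that lie under the basal lamina, and antibodies to α7 are widely used to purify those cells.

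Of the matrix-binding chains, 10 genes were followed, a list of names chosen with earlier results of these data known. Itga1 (ENSRNOG00000053550), Itga10 (ENSRNOG00000021217) and Itga11 (ENSRNOG00000006723) encode α chains of collagen receptors. The α chains of laminin receptors are encoded by Itga6 (ENSRNOG00000001518) and Itga7 (ENSRNOG00000007905). Itga5 (ENSRNOG00000057451), Itga8 (ENSRNOG00000016538) and Itgav (ENSRNOG00000004912) encode chains of receptors that recognise the RGD motif of fibronectin, nephronectin, vitronectin and related ligands. The α9 chain, encoded by Itga9 (ENSRNOG00000043167), binds tenascin-C, VCAM1 and other ligands, and Itgb1 (ENSRNOG00000010966) encodes the shared β1 chain. All 10 were among the 23373 rat genes of the SD rat table, and the 49280 genes of the chimera table held 10 rat and 10 mouse copies of them.

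The data were single-cell RNA-seq (scRNA-seq) libraries of skeletal muscle, 1 from a rat-mouse chimera and 1 from an SD (Sprague Dawley) rat. The chimera was a rat that had been injected as an SD morula with mouse Dmd mdx; Pax7-nGFP iPSCs, whose dystrophin gene had been edited with CRISPR/Cas9, so its rat cells were unedited host cells and its mouse cells came from the iPSCs. The labels name no treatment of either animal, and their ages are not given in the sources used here. The mouse cells come from edited iPSCs in a single host, so genotype, species and host cannot be told apart for them. Muscle of the whole body was digested with collagenase II and sorted for cells that took up a live-cell dye, a procedure from which few intact fibres are recovered. Cells of the chimera were called rat with at most 20% of their unique molecular identifiers (UMIs, 1 per captured transcript) on mouse genes and mouse with at least 80%.

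After filtering, 8816 SD rat, 8230 chimera rat and 1847 chimera mouse cells were kept, and 1653 mixed barcodes were set apart. Cells were sorted into classes by their own counts of marker genes, and 14 classes held at least 20 cells in both rat populations. A class carries a name only in the sense of resembling that cell type by its markers, so MP stands for MP-like cells, the myogenic progenitors that include satellite cells and myoblasts, and FAP for fibro-adipogenic progenitor-like cells. In each rat class the markers of its own type among the top 10 genes by fold were at least as many as those of any other type, and no member was among these genes. The markers counted were those that sorted the cells, so this check was not independent of the sorting. The weakest cases were myogenic progenitors, with 1 own marker, Myog, and 1 smooth muscle marker in chimera rat and in chimera mouse cells, and chimera mouse B cells, with 1 own marker, Cd79a, and 1 of monocytes or neutrophils, Plac8. The mouse macrophage class failed this check, with 0 own markers against 1 of monocytes or neutrophils, and was not compared. No mouse cell was gated as lymphatic endothelial cell (EC) or pericyte, and mouse smooth muscle (1 cell), mast (4 cells) and monocyte or neutrophil (19 cells) classes were too small. The barcode lists of both libraries shared 43 sequences, of which 36 passed the filters. Levels are given as UMIs per 1000000 UMIs of the cell's own species (CPM), summed over the cells of a class, with exact 95% Poisson intervals in brackets. Because each group was 1 library, no test between animals was possible, and all intervals cover counting error only. CPM from a 3′ assay are not divided by transcript length and count transcripts, so levels are compared between classes within a gene and not between genes.

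The shared chain Itgb1 was found in every class, and each α chain had its own pattern of classes. In SD rat cells, Itgb1 was highest in smooth muscle at 1260 CPM [1130 to 1390] and in pericytes at 1160 CPM [1070 to 1260], intervals that overlap. Vascular EC followed at 796 CPM [771 to 823], and tenocytes, FAP, Schwann or glial cells, lymphatic EC and MP lay between 706 and 560 CPM. The leukocyte classes were lower, from 335 CPM in macrophages to 118 CPM in B cells, and myofibres were lowest at 101 CPM [94.2 to 108]. Of the SD rat MP, 94.2% had at least 1 Itgb1 UMI, and 45.3% had one after every cell was thinned to 1000 UMIs. In chimera rat cells smooth muscle again stood at the top at 1070 CPM [1000 to 1140], and myofibres at the bottom at 56 CPM.

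**Figure D1:**
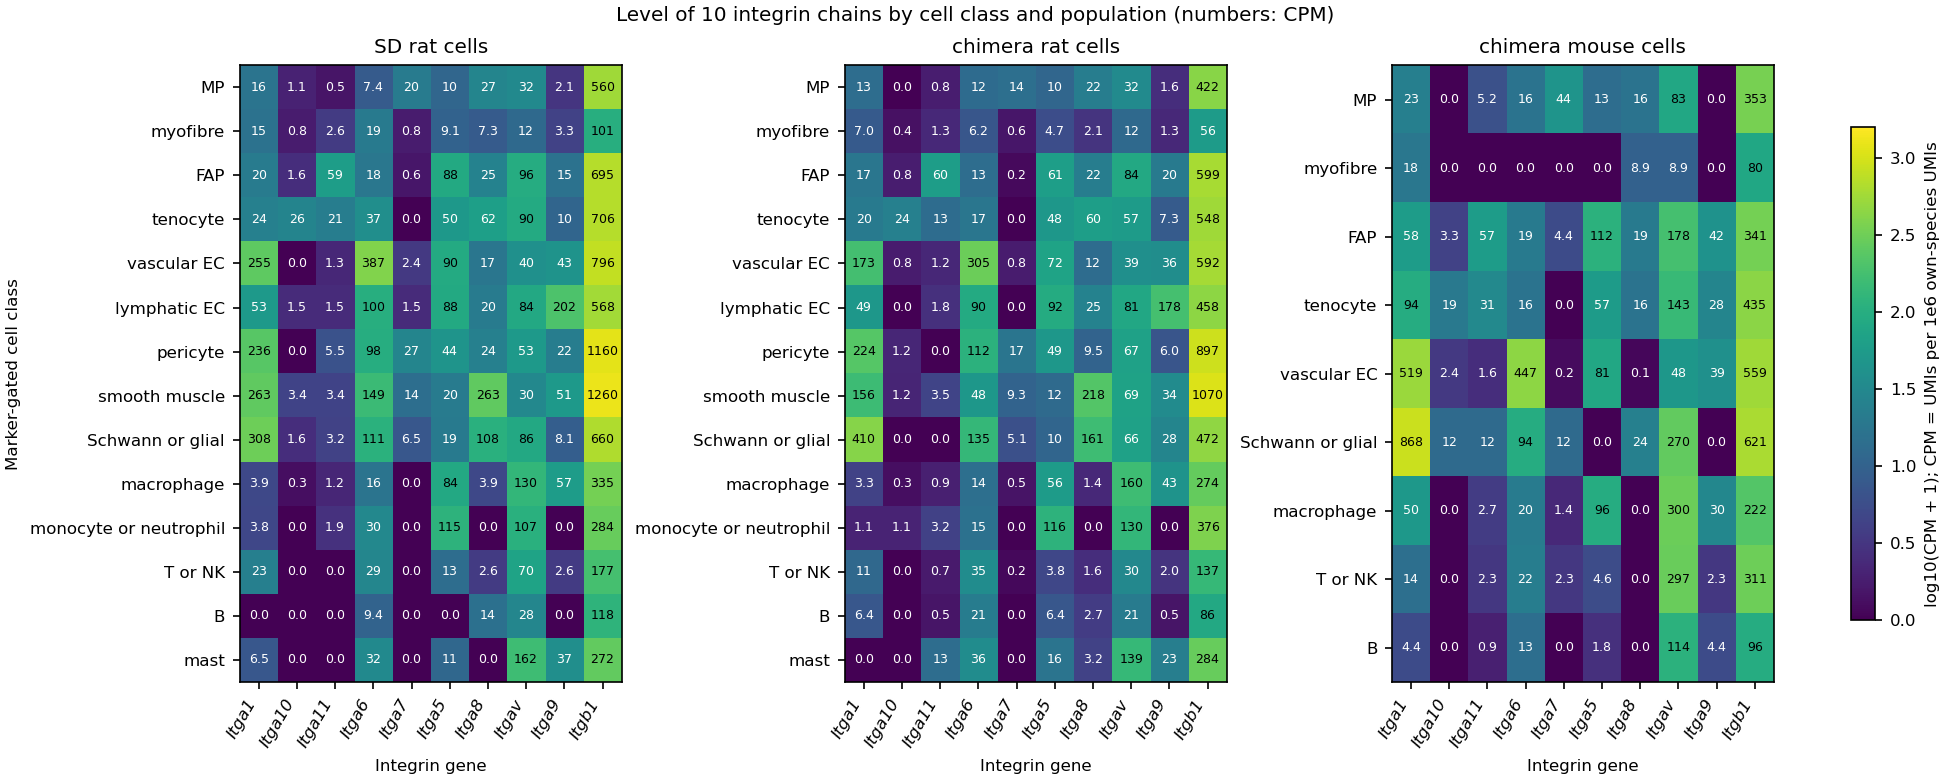
Levels of the 10 chains in each marker-gated class of SD rat, chimera rat and chimera mouse cells, with genes in columns, classes in rows, the CPM printed in each field and colour giving log10(CPM + 1). Itgb1 runs from 1260 CPM in smooth muscle to 101 CPM in myofibres of the SD rat, and within their columns Itga10 stands out in tenocytes, Itga11 in FAP and Itga9 in lymphatic EC.

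Among the collagen receptor chains, Itga1 marked the vessel wall and nerve, and Itga10 and Itga11 marked the tendon and connective tissue cells. Itga1 in the SD rat reached 308 CPM [266 to 355] in Schwann or glial cells, 263 CPM [208 to 329] in smooth muscle, 255 CPM [241 to 270] in vascular EC and 236 CPM [198 to 281] in pericytes. These 4 neighbours could not be ordered by their intervals, and the next class, lymphatic EC, was at 52.8 CPM. MP held 15.8 CPM [10.7 to 22.6] and B cells held 0 UMIs. Chimera rat cells had the same leading class, with 410 CPM [349 to 479] in Schwann or glial cells, and 224, 173 and 156 CPM in pericytes, vascular EC and smooth muscle. In the chimera mouse cells Itga1 was likewise highest in Schwann or glial cells, at 868 CPM [681 to 1090], and was 519 CPM [503 to 534] in vascular EC.

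Itga10, the chain of a receptor best known from cartilage, was found mainly in tenocytes, and no other SD rat class was above 3.38 CPM. Its level there was 26.4 CPM [21.8 to 31.7] in SD rat, 24.1 CPM [20 to 28.7] in chimera rat and 18.9 CPM [9.43 to 33.8] in chimera mouse cells, 3 intervals that overlap. A UMI was found in 71 of 509 SD rat tenocytes (13.9%, exact binomial interval 11.1 to 17.3), against 50 of 3153 FAP (1.59%) and 0 of 1071 vascular EC, which allows a share of up to 0.28%. Median depths were 7744 UMIs in tenocytes, 11096 in FAP and 3022 in vascular EC, and after thinning to 1000 UMIs the shares were 2.99%, 0.318% and 0%. The deeper FAP thus had the lower share.

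Itga11, a fibrillar collagen receptor chain of fibroblasts, was highest in FAP in both rat populations. SD rat FAP held 59.1 CPM [56.7 to 61.7] and chimera rat FAP 60.1 CPM [57.4 to 63]. Tenocytes held 21.4 CPM [17.3 to 26.2] in the SD rat, where no other class was above 5.46 CPM, and 12.7 CPM [9.8 to 16.2] in chimera rat cells, beside 12.9 CPM in mast cells from 4 UMIs. Of the SD rat FAP, 40.8% had a UMI, against 0.56% of vascular EC, and 5.4% against 0.0986% after thinning.

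Of the laminin receptor chains, Itga6 was highest in vascular EC and Itga7 in pericytes, followed by MP. Itga6 led in vascular EC, at 387 CPM [369 to 405] in SD rat, 305 CPM [289 to 323] in chimera rat and 447 CPM [432 to 462] in chimera mouse cells. Its next SD rat classes were smooth muscle at 149 CPM [108 to 200], Schwann or glial cells at 111 CPM, lymphatic EC at 99.7 CPM and pericytes at 98.2 CPM, whereas MP held 7.37 CPM from 14 UMIs. A UMI was present in 62.9%, 64.4% and 77.7% of vascular EC in the same order of populations, and in 29.5%, 29.4% and 35.1% after thinning.

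Itga7, the α chain of the main muscle laminin receptor, was sparse in every class and was found in mural and myogenic cells. In the SD rat it was 27.3 CPM [15.3 to 45] in pericytes from 15 UMIs and 20.5 CPM [14.6 to 28.1] in MP from 39 UMIs, levels whose intervals overlap. Smooth muscle had 13.5 CPM from 4 UMIs, and tenocytes, macrophages, monocytes or neutrophils, T or NK cells, B cells and mast cells had 0. Myofibres of the SD rat had 0.756 CPM from 6 UMIs, so the fibre class, where α7β1 protein is best known, held almost none of these 3′ counts. Chimera rat cells gave 16.7 CPM [9.13 to 28] in pericytes and 13.6 CPM [9.44 to 19] in MP, and chimera mouse MP gave 44.1 CPM [25.7 to 70.6] from 17 UMIs.

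By share of cells, an Itga7 UMI was found in 36 of 243 SD rat MP (14.8%, 10.6 to 19.9), 26 of 289 chimera rat MP (9%, 5.96 to 12.9) and 12 of 37 chimera mouse MP (32.4%, 18 to 49.8). The background was low: 19 of 3153 SD rat FAP (0.603%) had a UMI, and 0 of 509 SD rat tenocytes, which allows up to 0.589%. Median depths were 6909, 8665 and 10066 UMIs in the 3 MP populations and 11096 in SD rat FAP. After thinning to 1000 UMIs the MP shares were 2.47% (0.911 to 5.3), 1.38% (0.378 to 3.51) and 8.11% (1.7 to 21.9), intervals that overlap between populations, and SD rat FAP had 0%. Most MP thus carried no Itga7 UMI at this depth.

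**Figure D2:**
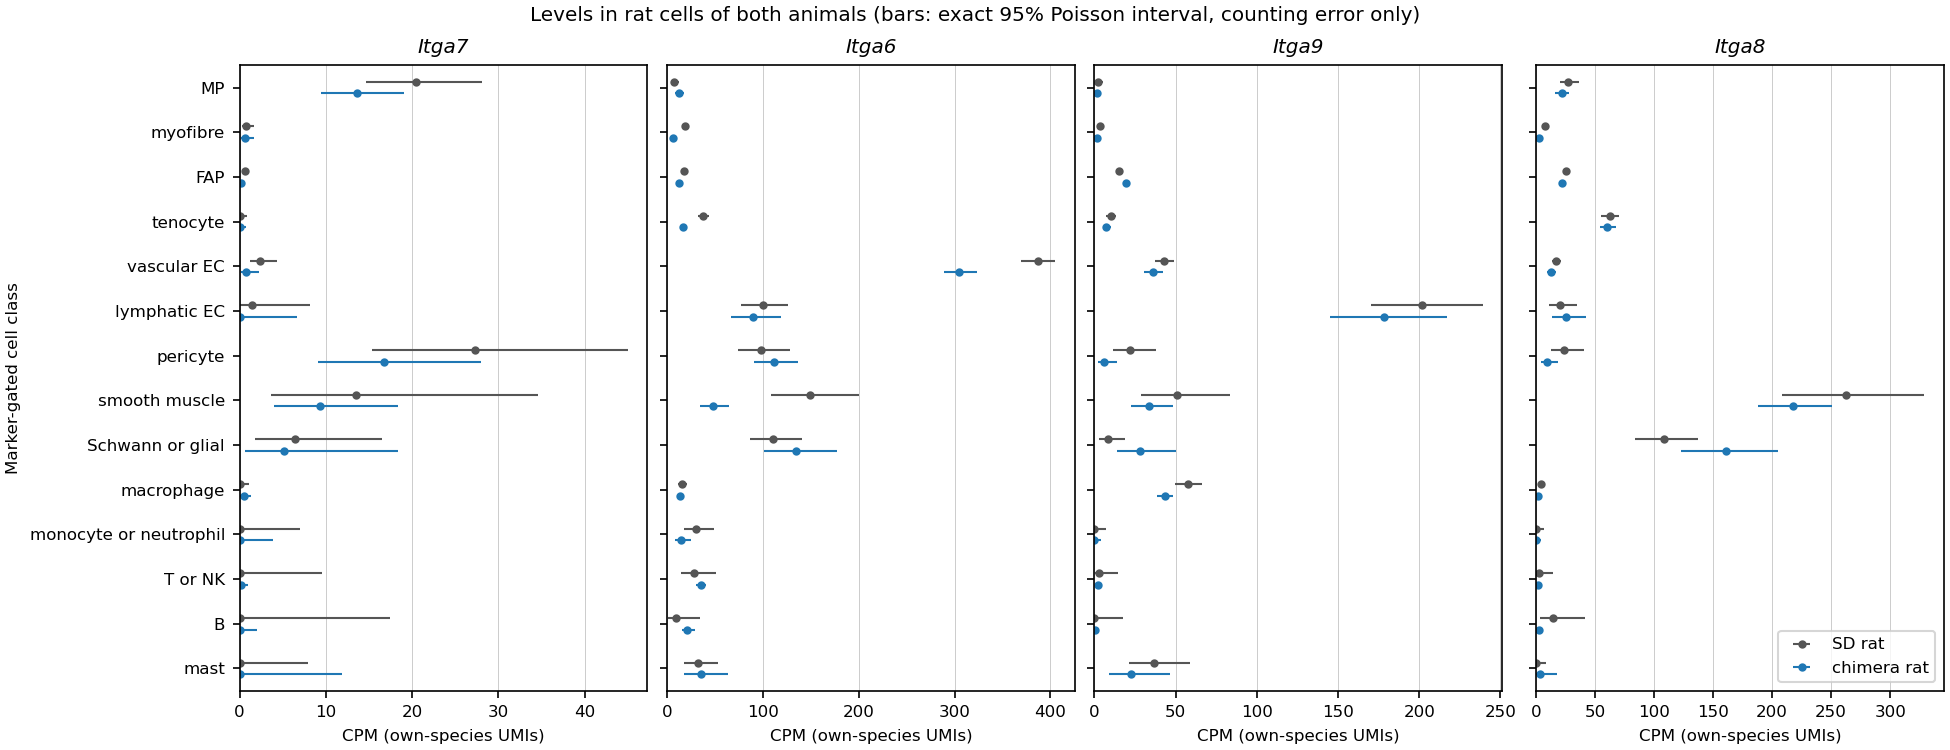
Levels of Itga7, Itga6, Itga9 and Itga8 (CPM, horizontal axes, 1 scale per gene) in the 14 classes (vertical axis) of SD rat (grey) and chimera rat (blue) cells, with exact 95% Poisson intervals as bars. Each chain has the same highest class in both rats: pericytes for Itga7, vascular EC for Itga6, lymphatic EC for Itga9 and smooth muscle for Itga8.

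Among the RGD receptor chains, Itga8 was narrow and Itga5 and Itgav were broad. Itga8, whose best known ligand is nephronectin, was 263 CPM [208 to 329] in SD rat smooth muscle, 108 CPM [83.8 to 137] in Schwann or glial cells and 62.2 CPM [55.1 to 70.1] in tenocytes, a descending order without overlap. MP at 27.4 CPM [20.5 to 35.9], FAP at 24.9 CPM and pericytes at 23.6 CPM followed as neighbours that could not be ordered. The chimera rat values were 218 CPM [188 to 251] in smooth muscle, 161 CPM [123 to 205] in Schwann or glial cells and 60.4 CPM in tenocytes, so its first pair of classes overlapped. In both rats the cells with a UMI were a majority of smooth muscle cells, 52.8% in SD rat and 64.3% in chimera rat, and 23.5% and 20.4% after thinning.

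Itga5, the fibronectin receptor chain, was highest in monocytes or neutrophils, at 115 CPM [87.8 to 147] in SD rat and 116 CPM [95.6 to 140] in chimera rat cells. In the SD rat it was followed by vascular EC (90.4 CPM), lymphatic EC (88 CPM), FAP (87.6 CPM [84.6 to 90.6]) and macrophages (84.2 CPM), and the intervals of these 4 classes overlap each other and that of the leading class. In chimera rat cells lymphatic EC overlapped the leader, at 91.9 CPM [68.5 to 121]. MP and myofibres were at 10.5 and 9.07 CPM.

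Itgav, the αv chain of vitronectin and latent TGF-β receptors, led in mast cells of the SD rat at 162 CPM [127 to 203] and in macrophages of the chimera rat cells at 160 CPM [150 to 170]. The same classes in the other rat were at 130 CPM [118 to 142] in SD rat macrophages and 139 CPM [101 to 187] in chimera rat mast cells, so the order of these neighbours was not settled in either rat. FAP and tenocytes of the SD rat were at 95.9 and 90.5 CPM, MP at 32.1 CPM and myofibres lowest at 11.5 CPM.

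Itga9 was a lymphatic marker in both rats. Lymphatic EC held 202 CPM [170 to 239] in the SD rat and 178 CPM [145 to 217] in the chimera, and the next class, macrophages, 57.4 CPM [49.6 to 66.1] and 43.2 CPM. A UMI was found in 59 of 89 SD rat lymphatic EC (66.3%) and 37 of 57 chimera rat lymphatic EC (64.9%), against 14.1% and 16.4% of FAP. The FAP were deeper, with medians of 11096 and 12290 UMIs against 6193 and 7185, and after thinning the shares were 15.7% and 19.6% in lymphatic EC and 0.985% and 2.03% in FAP. SD rat MP had 2.11 CPM from 4 UMIs, and monocytes or neutrophils and B cells had 0.

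Across all 10 chains, 9 had the same highest class in SD rat and chimera rat cells, and Itgav was the exception described above. Of all genes with at least 20 CPM in an SD rat class, 62.5% of 10016 had the same highest class in both. The interval of the highest class overlapped that of the next for Itga1, Itga5, Itga7, Itgav and Itgb1 in the SD rat and for Itga5, Itga7, Itga8 and Itgav in chimera rat cells, so those leads were not settled. The level of fibroblast transcripts in lymphocytes was taken as a rough scale of free RNA, and other sources of them were not tested. Col1a1, a fibrillar collagen gene of FAP and tenocytes, was 312 CPM in SD rat T or NK cells, against 19500 CPM in SD rat FAP. It was 205 CPM in chimera rat and 19.6 CPM in chimera mouse T or NK cells. The mouse value counts mouse copies only, so rat RNA in mouse cells is left out of it. The chimera held 124 mouse and 2624 rat FAP. The part of free RNA in member levels of a few CPM was not tested.

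The genes whose level over the 14 SD rat classes was most like that of a member were named by the highest Pearson r of log2(CPM + 5) among 10015 genes, a description only, since all points come from 1 library and share their cell sorting and depth. Itga10 was matched by Slc38a5 (r = 0.945 in SD rat, 0.914 in chimera rat cells), Col2a1 (0.937 and 0.852) and Comp (0.937 and 0.952), the last being a gene that the tenocyte gate used. Itga7 was matched by Rem1 (0.931 and 0.830), Rrad (0.919 and 0.637) and Akap6 (0.902 and 0.963). Itgb1 was matched best by Zfp516 (0.940 and 0.809), Itga1 by Zfp532 (0.927 and 0.846), Itga11 by Cpxm1 (0.929 and 0.721) and Itga5 by Ctsl (0.921 and 0.895). The best match was Fgf12 for Itga6 (0.912 and 0.770), Dgkb for Itga8 (0.906 and 0.842) and Psenen for Itgav (0.906 and 0.661).

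Within FAP, the chains differed along the known division between Pi16 cells, an adventitial-type state, and Smoc2 or Cxcl14 cells, the other common state. FAP were divided into cells with Pi16 on and the other markers off, and cells with Smoc2 or Cxcl14 on and Pi16 off, giving 303 and 1809 SD rat cells and 209 and 1647 chimera rat cells. Itga8 was 9.35 CPM [6.59 to 12.9] in Pi16 and 34 CPM [31.6 to 36.7] in Smoc2 or Cxcl14 cells of the SD rat, and 8.78 CPM [5.63 to 13.1] and 27.3 CPM [25 to 29.8] in chimera rat cells. Itga1 likewise went from 9.35 CPM [6.59 to 12.9] to 24.9 CPM [22.7 to 27.1], and from 5.12 CPM [2.8 to 8.6] to 21.4 CPM [19.3 to 23.7]. Both chains were therefore lower in Pi16 cells, without overlap of intervals, in each rat.

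Itga9 and Itga11 ran the other way. Itga9 was 26 CPM [21.3 to 31.6] in Pi16 against 11.5 CPM [10 to 13] in Smoc2 or Cxcl14 cells of the SD rat, and 33.7 CPM [27.1 to 41.3] against 17 CPM [15.2 to 19] in chimera rat cells. For Itga11 the values were 83.7 CPM [74.9 to 93.2] against 55.3 CPM [52.1 to 58.6], and 85.3 CPM [74.7 to 96.9] against 56.5 CPM [53.1 to 60]. Itgb1 was 568 CPM [545 to 592] in Pi16 and 789 CPM [777 to 801] in Smoc2 or Cxcl14 cells of the SD rat, and Itgav was nearly level at 95.8 and 100 CPM. The mouse FAP held only 16 and 67 such cells, in which Itga1 was 16.2 CPM [4.41 to 41.5] and 88.8 CPM [71.3 to 109] and Itga8 was 0 CPM [0 to 14.9] and 30.9 CPM [21 to 43.9], the same order as in the rats. Their Itga9, Itga11 and Itgb1 intervals overlapped between the states, with Itgb1 at 336 and 335 CPM.

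**Figure D3:**
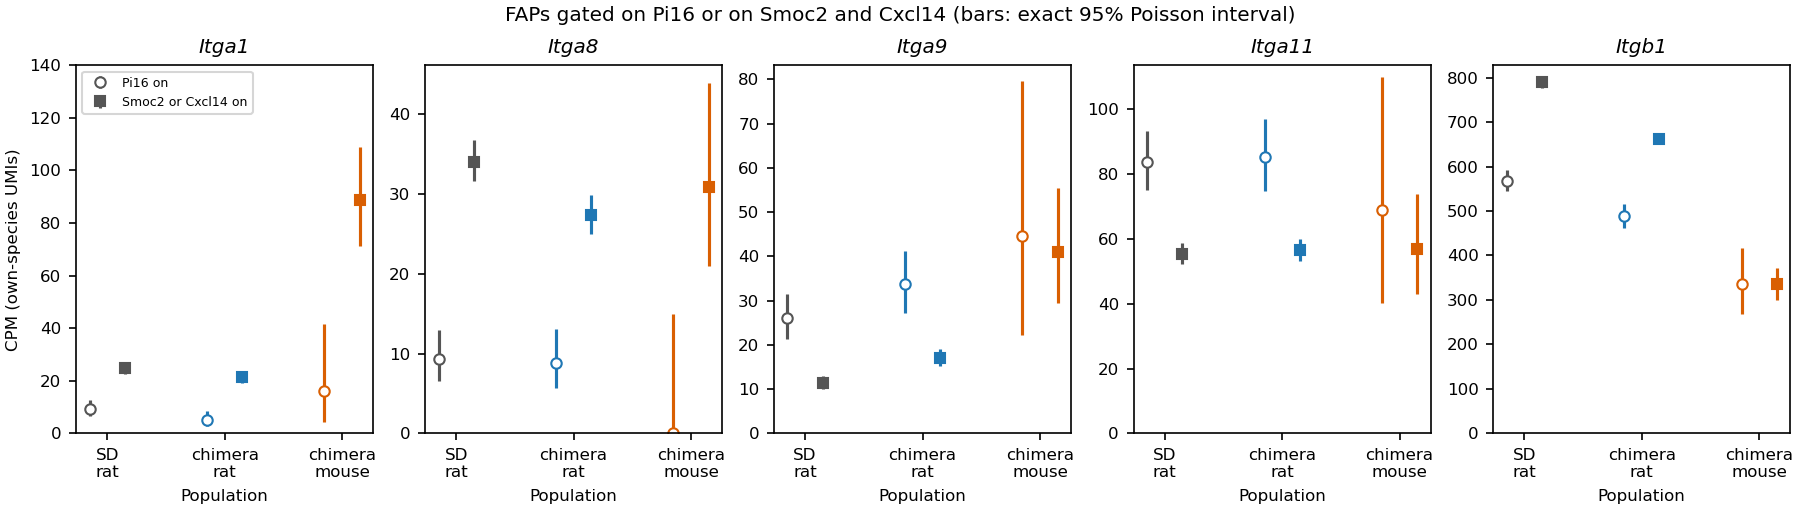
Levels of Itga1, Itga8, Itga9, Itga11 and Itgb1 (CPM, vertical axes, 1 scale per gene) in FAP with Pi16 on (open circles) and with Smoc2 or Cxcl14 on (squares) in SD rat, chimera rat and chimera mouse cells (horizontal axes), with exact 95% Poisson intervals as bars. In both rats Itga1, Itga8 and Itgb1 are lower and Itga9 and Itga11 higher in Pi16 cells.

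Within MP, Itga8 was higher in the Pax7 cells, the satellite cell state, than in Myog cells, the differentiating state, in chimera rat cells. It was 26.6 CPM [15.8 to 42] in 94 Pax7 cells and 4.66 CPM [0.96 to 13.6] in 57 Myog cells of the chimera rat, and 38.7 CPM [25.3 to 56.8] and 12.3 CPM [2.53 to 35.9] in 112 and 20 SD rat cells, where the intervals overlap. Itga7 was 20.9 and 20.5 CPM in Pax7 and Myog cells of the SD rat, and 22.2 CPM [12.4 to 36.5] and 7.76 CPM [2.52 to 18.1] in chimera rat cells. In the chimera mouse, Itga7 was 79.2 CPM [43.3 to 133] in 21 Pax7 cells from 14 UMIs and 18.1 CPM [3.73 to 52.9] in 11 Myog cells from 3 UMIs. These Itga7 intervals overlap in each population, so no order of the MP states was settled for it. Itgb1 in Pax7 and Myog cells was 607 and 479 CPM in SD rat, 458 and 388 CPM in chimera rat and 368 and 332 CPM in mouse cells.

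Chimera rat cells were set against SD rat cells class by class, which asks whether the chains of the host cells were at the level of an unmanipulated rat. Ratios are log2 of chimera rat over SD rat after 5 CPM were added to each level, and a pair of member and class was counted when both groups together held at least 50 UMIs, which 72 of 140 pairs did. Of the 72, 4 were past 2-fold (5.56%), 1 higher and 3 lower. The background was 4.71% of 85209 pairs of gene and class over all genes, with 1.77% higher and 2.94% lower, so the members' share was near that of all genes. Their median log2 ratio was -0.23 (quartiles -0.43 and -0.02) against -0.02 for all genes (-0.30 and 0.22). Of the 72, 17 were above 0, against 40598 of the 85209. In the chimera alone, rat reads can be assigned to a mouse copy. In chimera rat cells the mouse copy held a median of 4.4% of UMIs over 11685 gene pairs. It held 29.4% for Itga7, 22.3% for Itga5, 10.8% for Itga1, 10.3% for Itga9, 8.34% for Itga6 and 7.44% for Itga11. The share was 4.8% for Itgb1, 4.71% for Itgav, 2.99% for Itga8 and 1.82% for Itga10. Its part in the members' median was not tested.

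All 4 pairs lay in myofibres, smooth muscle or T or NK cells. Itga6 in myofibres was 6.2 CPM in chimera rat (33 UMIs) and 19 CPM in SD rat cells (151 UMIs), a log2 ratio of -1.10 and a fold of 0.326 [0.217 to 0.478], in a class where 4.06% of all genes were 2-fold lower. A further 13 Itga6 UMIs of the chimera rat myofibres lay on the mouse copy, 28.3% of the pair. A vascular EC marker was on in 506 of 2177 SD rat and 45 of 911 chimera rat myofibres, and without those cells Itga6 was 6.34 CPM [4.62 to 8.48] in SD rat and 3.47 CPM [2.06 to 5.48] in chimera rat myofibres, a log2 ratio of -0.42. In smooth muscle, Itga6 was 47.7 CPM against 149 CPM, a log2 ratio of -1.54, from 41 and 44 UMIs, in a class where 8.71% of all genes were 2-fold lower and 5.09% higher. Here EC markers were on in 64 of 115 chimera rat and 27 of 53 SD rat cells, and the log2 ratio was -1.07 without them.

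Itgav gave the other pairs. In smooth muscle it was 68.7 CPM against 30.4 CPM from 59 and 9 UMIs, a log2 ratio of 1.06 with a fold of 2.26 [1.11 to 5.18]. In T or NK cells it was 30.4 CPM against 70.2 CPM from 168 and 27 UMIs, a log2 ratio of -1.09 with a fold of 0.434 [0.288 to 0.677], beside 6.3% of all genes of the class that were 2-fold lower. The top 10 genes of that class included Ccl5, Plac8, Cd3g and Cd3e in both rats. Those of the SD rat (50 cells) also held Nkg7, Gzmm and Xcl1, genes of NK and cytotoxic cells. Those of the chimera rat cells (628 cells) also held Cd3d and Lef1, genes of T cells. The part of this difference in the Itgav ratio was not tested.

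Itgb1 was lower in the chimera rat cells in 12 of 14 classes, by a small amount. Its log2 ratio was -0.40 in MP, where 422 CPM [397 to 448] stood against 560 CPM [527 to 595], a fold of 0.754 [0.691 to 0.821]. It was -0.21 in FAP, -0.42 in vascular EC, -0.48 in Schwann or glial cells and -0.80 in myofibres, and lay above 0 in monocytes or neutrophils (0.40) and mast cells (0.06). Of the 1316 genes counted in all 14 classes, 22.3% were below 0 in at least 12 of them, and 13.1% also had a median at or below that of Itgb1, -0.36, so such a run was not rare. The chimera library was mapped to rat and mouse genes together, and 4.8% of the Itgb1 UMIs of its rat cells lay on the mouse copy, near the median of 4.4% over 11685 gene pairs. With both copies added together the median log2 ratio over classes was -0.43, but the chimera totals then held UMIs of both species. In MP the median of all genes moved too, from -0.03 to -0.08. The difference of Itgb1 from that median was -0.37 before and -0.39 after. The part of reads assigned to the mouse copy in the Itgb1 ratios was not tested.

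**Figure D4:**
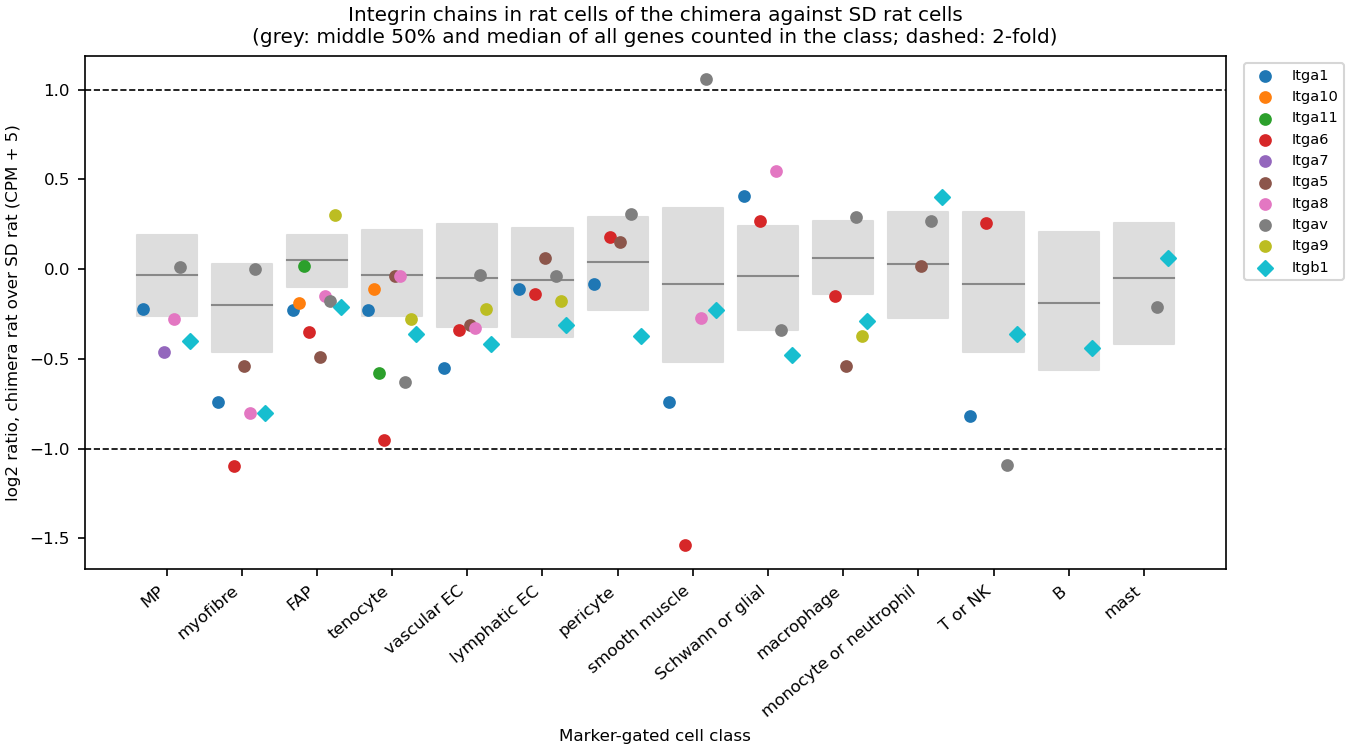
Log2 ratio of chimera rat over SD rat level, after 5 CPM were added, for each counted pair of member and class (points); the grey bands and lines give the middle 50% and the median of all genes of the class, and dashed lines mark 2-fold. Most member points lie below 0 and within the 2-fold lines, and 4 lie outside them.

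On this scale with 5 CPM added, each of the other chains stayed within 2-fold in every class counted. Without the added 5 CPM, 3 of their pairs were past it: Itga8 in myofibres at 2.07 against 7.31 CPM (fold 0.283 [0.134 to 0.544]), Itga1 in myofibres at 6.95 against 15 CPM (0.464 [0.312 to 0.676]) and Itga1 in T or NK cells at 11 against 23.4 CPM (0.472 [0.233 to 1.08]). Without myofibres that had a vascular EC marker on, Itga1 was 5.21 CPM [3.43 to 7.57] against 7.33 CPM [5.47 to 9.61], intervals that overlap. In all chimera rat myofibres, 38.3% of the Itga1 UMIs lay on the mouse copy. Itga1 was below 0 in 9 of its 10 classes, with 173 against 255 CPM in vascular EC (log2 ratio -0.55) and 410 against 308 CPM in Schwann or glial cells (0.41) as the exception. Itga5 was 60.8 against 87.6 CPM in FAP (-0.49) and 56.5 against 84.2 CPM in macrophages (-0.54), with a log2 ratio of 0.02 in monocytes or neutrophils, its leading class. Itga5 was also the member for which most UMIs of rat cells fell on the mouse copy after Itga7, 22.3% against 29.4%. For Itga5 this share was 20.8% in FAP, 27.4% in macrophages and 11.3% in monocytes or neutrophils. Its part in the Itga5 ratios was not tested.

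Itga7 was counted in MP alone, where its log2 ratio of -0.46 had a fold interval of 0.406 to 1.08 that includes 1. In those MP 5.56% of its UMIs were on the mouse copy, whereas in FAP it was 13 of 19 UMIs (68.4%), so the low Itga7 level of chimera rat FAP cannot be told apart from reads assigned to the mouse gene. Itga8, Itga9, Itga10 and Itga11 had medians of -0.27, -0.22, -0.15 and -0.28 over 7, 5, 2 and 2 classes. Itga11 and Itga10 were nearly level in their leading classes, at 0.02 in FAP and -0.11 in tenocytes.

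Chimera mouse cells were then set beside the rat cells that shared their host, in the 8 classes where the mouse cells passed the marker check. Among their top 10 genes, mouse tenocytes had 3 own markers and 1 FAP marker, Dcn, whereas chimera rat tenocytes had 5 and 0. The part of this difference in the tenocyte ratios was not tested. The chimera rat cells are those of the comparison above, so the 2 comparisons are not independent. Here 41 of 80 pairs of member and class were counted, and 16 (39%) were past 2-fold, 13 higher and 3 lower in mouse cells. Over all genes matched by symbol, 26.4% of 50088 pairs were past 2-fold, 11.7% higher and 14.7% lower, and by class the higher share ran from 9.32% to 14.8%. Each gene is read against the sequence and annotation of its own species. Part of any single ratio may therefore come from the gene models, which was not tested. The members' median was 0.23 against -0.02 for all genes.

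Itgav was the chain most widely higher in mouse cells. It was 297 CPM [262 to 335] in mouse and 30.4 CPM in rat T or NK cells, a log2 ratio of 3.09 and a fold of 9.75 [8 to 11.9]. In B cells it was 114 against 20.7 CPM, a log2 ratio of 2.21 and a fold of 5.52 [3.83 to 8.11]. A UMI was present in 58.1% of mouse and 18.5% of rat T or NK cells, and in 11.6% and 2.87% after thinning, at median depths of 7206 and 7847.5 UMIs. Single cells weighed on these sums, as 29 of the 258 T or NK UMIs and 33 of the 129 B cell UMIs came from 1 mouse cell each. Of the T or NK cells, 12 of 86 mouse and 40 of 628 rat cells were cycling. The part of class makeup in the Itgav ratio was not tested.

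In non-immune classes the Itgav log2 ratio was 1.23 in MP (83 CPM [56.8 to 117] against 32.5 CPM), 1.04 in FAP (178 against 84 CPM) and 1.26 in tenocytes (143 against 56.6 CPM). It was 0.29 in vascular EC, and in myofibres it rested on 1 mouse UMI. Schwann or glial cells, at 270 CPM from 23 mouse UMIs against 66.3 CPM from 26, fell just under the 50 UMIs needed to be counted. Of 2956 genes counted in at least 7 of the classes, 2.47% were 2-fold higher in at least 5, as Itgav was in 5 of 7.

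Itga1 was higher in mouse cells in all 5 classes counted and past 2-fold in 4 of them. In vascular EC it was 519 CPM from 4175 UMIs against 173 CPM from 690 UMIs, a log2 ratio of 1.55 and a fold of 2.99 [2.76 to 3.25]. The log2 ratio was 1.54 in FAP (58.1 against 16.8 CPM), 2.01 in tenocytes (94.5 against 19.7 CPM) and 1.07 in Schwann or glial cells (868 against 410 CPM), whereas T or NK cells were at 0.23. In vascular EC a UMI was found in 77.9% of mouse and 49.6% of rat cells, and in 39.6% and 17.8% after thinning. Of 5573 genes counted in at least 5 classes, 4.76% were 2-fold higher in at least 4.

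Itga8 was the chain that was lower in mouse cells. In vascular EC 1 of 1077 mouse cells had a UMI (0.0929%), against 39 of 685 rat cells (5.69%), and the UMIs numbered 1 and 50, a log2 ratio of -1.78 and a fold of 0.0099 [0.000246 to 0.0577]. Col1a1, used above as a rough scale of free RNA, was 41.1 CPM in mouse and 347 CPM in rat vascular EC, each on the copy of the cell's own species. Vtn, a leading gene of rat pericytes, was 0.124 and 113 CPM. The part of RNA from other cells in the Itga8 ratio was not tested. Tenocytes had 15.5 CPM from 9 UMIs in mouse against 60.4 CPM in rat cells, a fold of 0.256 [0.116 to 0.492], and Schwann or glial cells had 2 UMIs against 63, a fold of 0.146 [0.0173 to 0.55]. In mouse vascular EC 8 of the 9 UMIs of the gene pair lay on the rat copy (88.9%). In FAP and MP the log2 ratios were -0.15 and -0.37, with fold intervals of 0.606 to 1.23 and 0.253 to 1.67 that include 1.

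**Figure D5:**
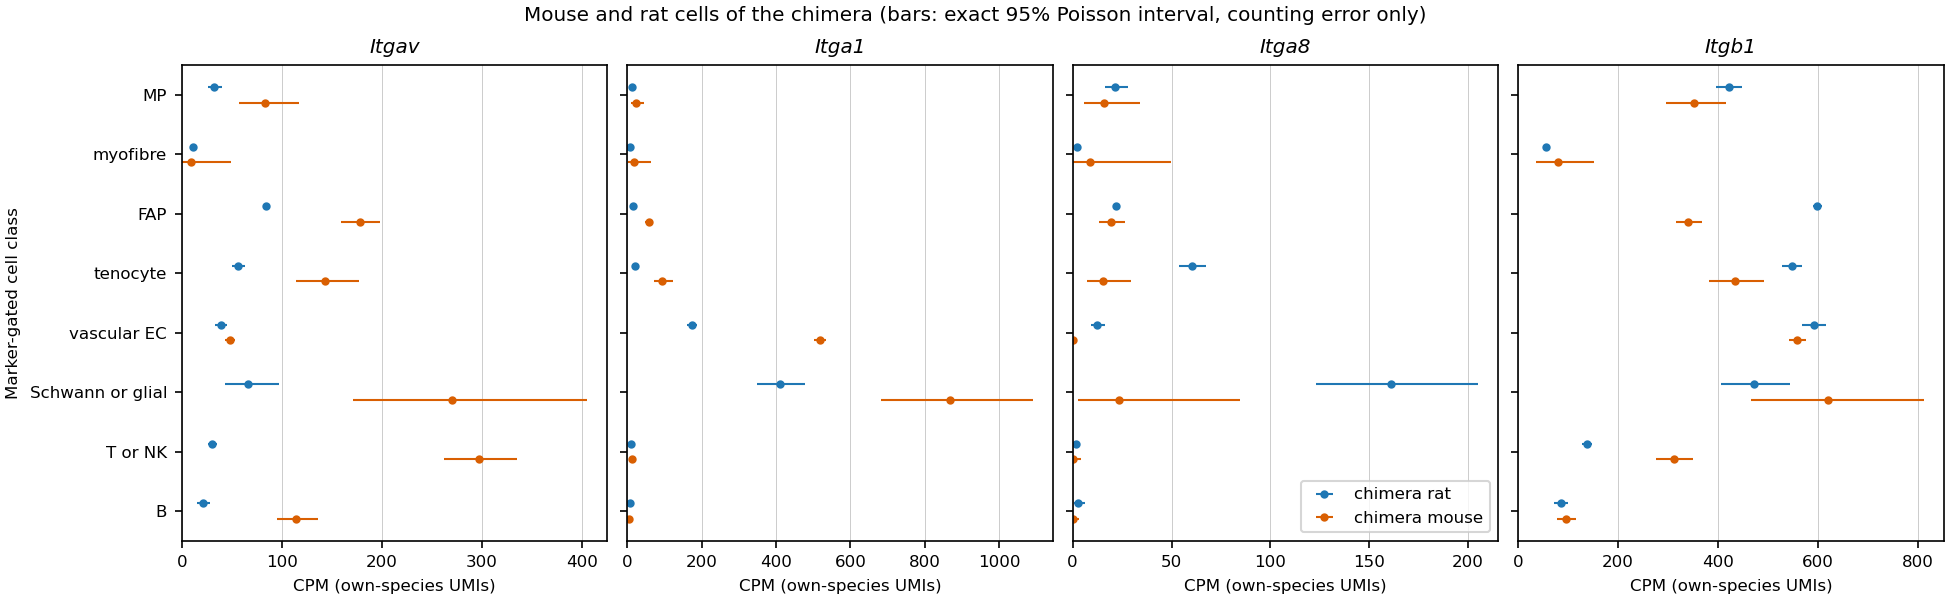
Levels of Itgav, Itga1, Itga8 and Itgb1 (CPM, horizontal axes, 1 scale per gene) in 8 classes (vertical axis) of chimera rat (blue) and chimera mouse (orange) cells, with exact 95% Poisson intervals as bars. Itgav is higher in mouse MP, FAP, tenocytes, T or NK and B cells, Itga1 in mouse FAP, tenocytes, vascular EC and Schwann or glial cells, and Itga8 is lower in mouse tenocytes, vascular EC and Schwann or glial cells.

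For the laminin chains, Itga7 in MP was 44.1 CPM [25.7 to 70.6] in mouse against 13.6 CPM [9.44 to 19] in rat cells, a log2 ratio of 1.40 and a fold of 3.24 [1.7 to 5.96] from 17 and 34 UMIs. Over all genes of that class, 10.5% of pairs were 2-fold higher in mouse cells. Itga6 stayed within 2-fold in its 6 classes, with 447 against 305 CPM in vascular EC (0.54). The 31 mouse myofibres held 0 UMIs of Itga5, Itga6, Itga7, Itga9, Itga10 and Itga11, each at 0 CPM [0 to 32.9]. In chimera rat myofibres these chains were at 6.2 CPM (Itga6) or below, inside that interval.

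The remaining chains were mixed. Itgb1 was 2-fold higher in T or NK cells only of the 8 classes, at 311 against 137 CPM, a log2 ratio of 1.15 and a fold of 2.27 [1.97 to 2.61]. It was lower in mouse FAP, at 341 CPM [315 to 369] against 599 CPM, a fold of 0.569 [0.525 to 0.617], and in MP the intervals overlapped, at 353 CPM [296 to 417] against 422 CPM [397 to 448]. Itga9 and Itga11 were past 2-fold in tenocytes alone, with log2 ratios of 1.39 and 1.02 from 16 and 18 mouse UMIs. Itga5 and Itga10 stayed within 2-fold, as in FAP, where Itga5 was 112 against 60.8 CPM (0.83), and in tenocytes, where Itga10 was at -0.28.

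The ligands and partners of the chains were taken from lists of the matrix, adaptor and regulator genes. In SD rat MP the laminin genes Lama2 (517 CPM) and Lamc1 (479 CPM), which encode chains of the muscle basal lamina, and Col4a1 (898 CPM), a basement membrane collagen, were the highest of their lists. FAP made the fibrillar collagens, with 22900 CPM of Col3a1 and 19500 CPM of Col1a1. Collagen genes were the list with the clearest shift between the rats: 23 of 93 pairs of gene and class were past 2-fold, 1 higher and 22 lower in chimera rat cells, with a median log2 ratio of -0.64 against -0.02 for all genes. Col1a1 in MP was 205 against 592 CPM (-1.51) and Col4a1 was 432 against 898 CPM (-1.05). In chimera rat T or NK cells Col1a1 was also 205 CPM, whereas Col4a1 was 31.2 CPM there and 83.2 CPM in SD rat T or NK cells. The part of free RNA in these collagen ratios was not tested. In FAP, the main source of collagen transcripts, none of the 7 collagen genes was past 2-fold, and the median was -0.18.

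Laminin genes were past 2-fold in 3 of 62 pairs (4.84%), a share near the 4.71% of all genes, and all 3 were lower, namely Lamb1 in myofibres (-1.21) and Lama2 in vascular EC (-1.08) and smooth muscle (-1.47). The adaptor and kinase genes that link integrins to actin were past 2-fold in 2 of 150 pairs, and the other integrin α and β chains in 1 of 29 and 1 of 25, both in T or NK cells. Those were Itga2, at 13.2 against 2.6 CPM with a fold interval of 0.885 to 204 that includes 1, and Itgb8, which encodes the αv partner chain β8, at 27 CPM in chimera rat cells and 0 UMIs in the 50 SD rat cells. Genes for fibronectin, tenascin and other RGD ligands were past 2-fold in 12 of 69 pairs, 3 higher and 9 lower, with Spp1 (2.03) and Fn1 (1.54) higher in macrophages.

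Between mouse and rat MP of the chimera, 5 of 6 genes for fibronectin, tenascin and other RGD ligands were past 2-fold, 3 higher and 2 lower, in a class where 28.4% of all genes were, 10.5% higher and 17.9% lower. Tnc, which encodes tenascin-C, was 223 against 22.8 CPM (log2 ratio 3.03), Vcam1 was 431 against 128 CPM (1.71), and Fn1 was lower in mouse MP (-3.94). Mouse MP held 0 UMIs of Itga9, the tenascin-C and VCAM1 receptor chain, which is 0 CPM [0 to 9.57]. Rat MP held 4 in each animal, at 1.6 CPM in chimera rat and 2.11 CPM in SD rat cells. Both lie inside the mouse interval, so the 0 does not tell the mouse level from that of the rats. Over all 8 classes, laminin genes were past 2-fold in 14 of 36 pairs, 13 of them lower in mouse cells, and collagen genes in 29 of 54, 26 of them lower, against 26.4% of pairs over all genes and 14.7% lower. The lower collagen pairs were 6 of 6 in B cells and 5 of 7 each in T or NK cells, myofibres and vascular EC, but 1 of 7 in tenocytes and 0 of 7 in FAP, so most lay outside the main collagen-making classes, and the part of free RNA in them was not tested. Itgb8 in T or NK cells was 82.8 CPM in mouse against 27 CPM in rat cells (1.46). Also higher there were Itgav (3.09), Itgal (1.57), Itgb2 (1.28) and Itgb1 (1.15), whereas Itgae (-1.31) and Itgax (-1.78) were lower. Between chimera rat and SD rat T or NK cells, Itgb8 (2.68) and Itgav (-1.09) went opposite ways.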

How the data were processed

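Skeletal muscle cells of 1 rat-mouse chimera and 1 SD rat were profiled with a 10x 3′ kit. The authors deposited un-normalized UMI counts for each gene in each barcode. Per the submitters' processing notes, Cell Ranger 7.1.0 was used with mRatBN7.2 and GRCm39. The chimera table holds rat, mouse and EGFP rows and the SD rat table rat rows only, so a rat read can be lost to a mouse row in the chimera alone. Total counts were 118872850 UMIs in 13299 chimera barcodes and 70957559 in 10117 SD rat barcodes, with medians of 7407 and 5373. 

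Barcodes with at least 500 UMIs, 200 genes and at most 20% mitochondrial UMIs were kept (12174 and 8980), and doublets predicted by Scrublet in scanpy 1.11.5 were removed (444, 3.65%, and 164, 1.83%). A marker was on in a cell when its share of UMIs reached 10% of its mean in the 100 highest rat or 20 highest mouse cells. A cell took the class of 15 marker lists with the highest share of markers on, given at least 3 on and a strict lead, and was otherwise unnamed (581, 768 and 197 cells). An erythroid class was not carried further. This rule was set on the files from marker counts, never from the members. Class names are rebuilt from markers and are not those of the study. Counts were summed per class and divided by own-species totals (CPM), with exact Poisson and binomial (Clopper-Pearson) 95% intervals. Where no cell had a UMI, the limit of 3 counts is given. Ratios used a pseudocount of 5 CPM and genes with at least 50 summed UMIs, and 2-fold was the threshold. The code was tested on simulated data with 200 changed genes. All members were named. Of the ligand and partner lists, genes past 2-fold or the 2 highest of a list in a class could be named, and the 3 most like genes per member, of which that of Itga9 is not reported here. The members and lists were chosen with earlier results of these data known. Alternatives changed the doublet, depth, species, gate, row, pseudocount, weighting, filter, denominator and centring choices, and used clusters from leidenalg 0.10.2. Other tools were python 3.11.15, numpy 2.4.6, scipy 1.17.1, pandas 2.3.3 and matplotlib 3.10.9. The chimera's mixed barcodes and EGFP row entered no comparison.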

Additional observations from a re-analysis of the deposited data

Results flagged for a closer look

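The 1653 mixed barcodes of the chimera, which entered no class, held member transcripts of both species. Itgb1 had 2374 UMIs on its mouse copy and 3201 on its rat copy in them, so that 42.6% were mouse, against 50.7% for all genes. The mouse share was 79.8% for Itga1 and 76.9% for Itga6, and 18.5% for Itga8 and 23% for Itga11.

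The 4 mouse mast cells, a class too small to compare, held 11 UMIs of Itga9, from 2 of the cells, which amounts to 948 CPM [473 to 1700]. No other class of mouse cells, of at least 20 cells, was above 41.7 CPM for this gene.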

How the results depend on the processing

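Over 13 settings, the reported one included, the ratios past 2-fold had 237 alternative values, of which 221 moved by no more than their counting interval, 16 moved by more and none changed sign. The number of members past 2-fold between chimera rat and SD rat cells, 4 of 72 pairs, was 2 with at least 1000 UMIs per cell, 8 with a pseudocount of 1 CPM, 10 with cells weighted equally and 2 of 68 without cells with an EC marker on, the last an alternative chosen after seeing the data. Itga6 in myofibres ranged from -1.75 to -0.42 and Itgav in smooth muscle from 0.69 to 1.35 (log2), while Itgav in T or NK cells reached -1.57 with equal weights and lay at the 2-fold threshold once centred on the class median. Itgb1 had a median log2 ratio between -0.43 and -0.29 in every setting. Between mouse and rat cells, Itga7 in MP ranged from 1.40 to 2.15, Itgav in T or NK cells from 2.93 to 3.24 and Itga1 in vascular EC from 1.23 to 1.61. Of the 16 pairs, 5 fell within 2-fold in at least 1 setting: Itgav in FAP (0.93 to 1.11) and tenocytes (0.96 to 1.33), Itga1 in Schwann or glial cells (0.74 to 1.28), Itga9 in tenocytes (0.98 to 1.77) and Itga11 in tenocytes (0.76 to 1.25). The highest class was shared by 9 of 10 members, by 8 under a stricter gate, equal weights or without cells with an EC marker on, and by 7 with clusters, which gave only 9 classes. No paired analysis was possible because each group is 1 library, and none could be left out in turn. Differences between animals were not measured.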
